A study of Mus musculus with 18 samples.

Results

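Stem cell factor (SCF, gene Kitl) is the ligand of the receptor tyrosine kinase KIT, and in adult bone marrow it is made mainly by stromal cells that express the leptin receptor and by endothelial cells. Early erythroid progenitors carry KIT, whose signal passes through scaffold proteins such as GAB2 to the RAS/ERK and PI3K pathways and switches on feedback genes of the Sprouty, SPRED and DUSP families. PreCFU-E are the earlier and CFU-E the later of the 2 progenitors studied here, and on the way from the earlier to the later stage the cells turn from dependence on SCF towards erythropoietin (EPO), which acts through JAK2 and STAT5.

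The comparison described here is that of Scf KO/FL with Scf FL/FL mice. KO/FL mice carry 1 germline null and 1 floxed Scf allele in every cell, without Cre, so the floxed allele is the only Scf allele left to them. FL/FL mice carry 2 floxed alleles without Cre. It rests on 12 of the 18 libraries of the series and 6 of its 9 mice, 3 KO/FL and 3 FL/FL, each of which gave a PreCFU-E and a CFU-E library. The other 3 mice were KO/FL;Lepr-Cre, in which Cre driven by the leptin receptor gene also removes the floxed allele from stromal cells of that lineage, while other SCF sources keep it. All groups carry the floxed allele, and there was no group with 2 unmodified alleles. Replicates A and C of each genotype were male and replicate B female. The age and strain of the mice are unknown here.

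Each library came from 5000 to 10000 sorted, KIT-enriched bone marrow cells and was sequenced as stranded total RNA. The labels also head this protocol as a nuclear extraction, so whether CPM here measure whole-cell or nuclear RNA is not settled by them. The 12 libraries held 3541066 to 9389122 gene-assigned reads and 11382 to 13536 detected genes. The shallowest was PreCFU-E of KO/FL replicate A. Kitl itself had 0 or 1 reads per library, so the targeted gene could not be checked in these cells, which are not its source. Y-linked reads followed the labelled sex. Globin transcripts summed to 0.565 to 2.91 CPM (read counts scaled by library size) in KO/FL and 0.149 to 2.98 CPM in FL/FL PreCFU-E, and to 21 to 35.6 CPM in KO/FL and 28.0 to 38.9 CPM in FL/FL CFU-E, in the order of maturity that the labels give. Some marker lists of other lineages were low and others were not. In the 12 libraries, 21 neutrophil and monocyte genes summed to at most 7.65 CPM, with 7 of them at 0 throughout, and 12 T and NK cell genes to at most 7.52 CPM. The 14 macrophage genes summed to 220 to 385 CPM in KO/FL and 320 to 412 CPM in FL/FL PreCFU-E, led by the apolipoprotein gene Apoe (means of 320 CPM in KO/FL and 362 CPM in FL/FL), and to at most 34.3 CPM in CFU-E. The 14 endothelial genes summed to 175 to 220 CPM in KO/FL and 178 to 221 CPM in FL/FL over both cell types, led by Eng, which encodes the sort marker CD105.

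No gene differed between KO/FL and FL/FL mice at an adjusted p of 0.05 in either cell type with edgeR's quasi-likelihood test and Benjamini-Hochberg adjustment. In PreCFU-E, 0 of 10309 genes passed (0% called), and the smallest adjusted p was 0.190, for Sptb. An unadjusted p under 0.05 was reached by 350 genes (3.4%), 190 higher (1.84%) and 160 lower (1.55%) in KO/FL. In CFU-E, 0 of 10192 genes passed (0% called), with 210 genes (2.06%) under the unadjusted threshold, 94 higher (0.922%) and 116 lower (1.14%). These unadjusted shares lie below the 5% that the threshold itself passes when nothing differs. In 927 PreCFU-E genes (8.99%) and 821 CFU-E genes (8.06%) all 3 KO/FL libraries lay on the same side of all 3 FL/FL libraries, above them for 4.34% and below for 4.66% of PreCFU-E genes and for 4.03% and 4.02% of CFU-E genes. With 3 libraries against 3, a share of genes separates in this way when nothing differs, so separation alone is no evidence of a difference. DESeq2 called 5 genes in PreCFU-E (Cdh24, Fam124a, Gab2, Ptger3 and Sptb) and 1 in CFU-E (Podxl). The median standard error of a log2 fold change was 0.20 in both cell types, and the median size of the fold changes was 0.14 in PreCFU-E and 0.12 in CFU-E. The edgeR fits also held the KO/FL;Lepr-Cre libraries of each cell type. For KO/FL;Lepr-Cre against FL/FL they gave 632 called genes (6.13%) in PreCFU-E and 492 (4.83%) in CFU-E. For KO/FL;Lepr-Cre against KO/FL they gave 225 (2.18%) and 103 (1.01%) in the same 2 cell types.

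Mice with the same replicate letter deviated together, and with the letter as a block edgeR called 9 PreCFU-E genes (0.0873%), of which 8 rose and 1 fell in KO/FL. The 8 that rose were Vps13c, Sptb, Ptger3, Tmem56, Gab2, Cd24a, Pim1 and Fam124a, and the 1 that fell was Rpl5. The same block called 0 CFU-E genes, where Gab2 and Txnip came nearest (adjusted p = 0.0632 each). The values of these genes follow. In bulk RNA of sorted cells, a different mix of cells within the gate and a different level per cell cannot be told apart.

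Gab2 encodes the scaffold that links KIT and other cytokine receptors to SHP2 and PI3K, and lies at chr7:97081586-97308946 on GRCm38. In PreCFU-E it had 116, 72.5 and 85.3 CPM in KO/FL replicates A, B and C, against 43.3, 50.8 and 23.2 CPM in FL/FL. In CFU-E it had 70.9, 37.7 and 39.7 CPM in KO/FL, against 33.1, 24.6 and 14.4 CPM in FL/FL. All KO/FL libraries lay above all FL/FL libraries in both cell types. The log2 fold change was 1.21 ± 0.26 (SE) in PreCFU-E and 1.06 ± 0.29 in CFU-E, with unadjusted p of 0.000613 and 0.00286 and adjusted p of 1 in both. With the replicate block the adjusted p was 0.00544 in PreCFU-E.

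Ptger3, the prostaglandin E2 receptor EP3, lies at chr3:157566892-157645888. It had 37.8, 32.6 and 27.1 CPM in KO/FL PreCFU-E, against 19.2, 14.8 and 11.4 CPM in FL/FL. In CFU-E the values were 16.9, 12.6 and 15.9 CPM in KO/FL, against 11.8, 8.66 and 6.80 CPM in FL/FL. The groups did not overlap in either cell type, and in PreCFU-E replicate A was highest and C lowest in both genotypes. The log2 fold change was 1.09 ± 0.22 in PreCFU-E (unadjusted p = 4.20e-05, adjusted p = 0.217) and 0.75 ± 0.26 in CFU-E (unadjusted p = 0.00874). The block gave an adjusted p of 0.00200 in PreCFU-E.

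Pim1 encodes a serine/threonine kinase that STAT5 is known to induce. Its PreCFU-E levels were 47.6, 48.4 and 34.5 CPM in KO/FL, against 29.7, 26 and 16.5 CPM in FL/FL, with no overlap. In CFU-E, KO/FL libraries had 34.6, 29.6 and 38.0 CPM, against 20.4, 31.3 and 20.7 CPM in FL/FL, and FL/FL replicate B lay within the KO/FL range. The log2 fold change was 0.85 ± 0.21 (unadjusted p = 0.000482, adjusted p = 0.994; 0.0105 with the block) in PreCFU-E and 0.49 ± 0.20 (unadjusted p = 0.0242) in CFU-E.

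Sptb, which encodes the β-spectrin of the red cell membrane skeleton, differed in PreCFU-E and not detectably in CFU-E. PreCFU-E had 150, 113 and 110 CPM in KO/FL, against 88.0, 72.7 and 64.1 CPM in FL/FL, a log2 fold change of 0.72 ± 0.13 (unadjusted p = 1.85e-05, adjusted p = 0.190; 3.68e-06 with the block). CFU-E, where the gene is more abundant, had 668, 800 and 655 CPM in KO/FL, against 772, 864 and 563 CPM in FL/FL, a log2 fold change of -0.05 ± 0.15. The test of the difference between the cell types gave -0.78 on the log2 scale, CFU-E minus PreCFU-E, with an unadjusted p of 0.00247 and an adjusted p of 1. With mouse as a block that adjusted p was 0.0611.

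Vps13c, a lipid transfer protein, had the smallest p with the block. Its PreCFU-E levels were 579, 432 and 368 CPM in KO/FL, against 292, 274 and 194 CPM in FL/FL, and replicate C was the lowest in both genotypes. The log2 fold change was 0.86 ± 0.24, with an unadjusted p of 0.00548 without the block and an adjusted p of 3.23e-07 with it. Tmem56, a multi-pass membrane protein, had 103, 55.5 and 89.0 CPM in KO/FL, against 63.2, 31.8 and 47.4 CPM in FL/FL, so the groups overlapped while every KO/FL library exceeded the FL/FL library of its letter (0.78 ± 0.25; adjusted p = 0.00419 with the block). Both genes were named because the block called them, after their values were seen.

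Cd24a, a surface glycoprotein of immature blood cells, had 546, 442 and 500 CPM in KO/FL PreCFU-E, against 374, 383 and 364 CPM in FL/FL (log2 fold change 0.41 ± 0.11, adjusted p = 0.00643 with the block). Fam124a had few reads. Its PreCFU-E counts were 26, 16 and 16 in KO/FL, against 0, 1 and 6 in FL/FL (log2 fold change 3.53 ± 0.73, unadjusted p = 0.000106, adjusted p = 0.365; 0.0252 with the block). Rpl5, a protein of the large ribosomal subunit, had 508, 453 and 671 CPM in KO/FL, against 654, 655 and 734 CPM in FL/FL (-0.32 ± 0.12, adjusted p = 0.0462 with the block). Ribosomal protein genes have many processed copies in the genome, and the share of reads they took here is not known. Of the 79 ribosomal protein genes tested in PreCFU-E, 1 was higher and 2 were lower at an unadjusted p under 0.05 (3.4% of all genes passed in either direction), and their median log2 fold change was 0.03.

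**Figure D1:**
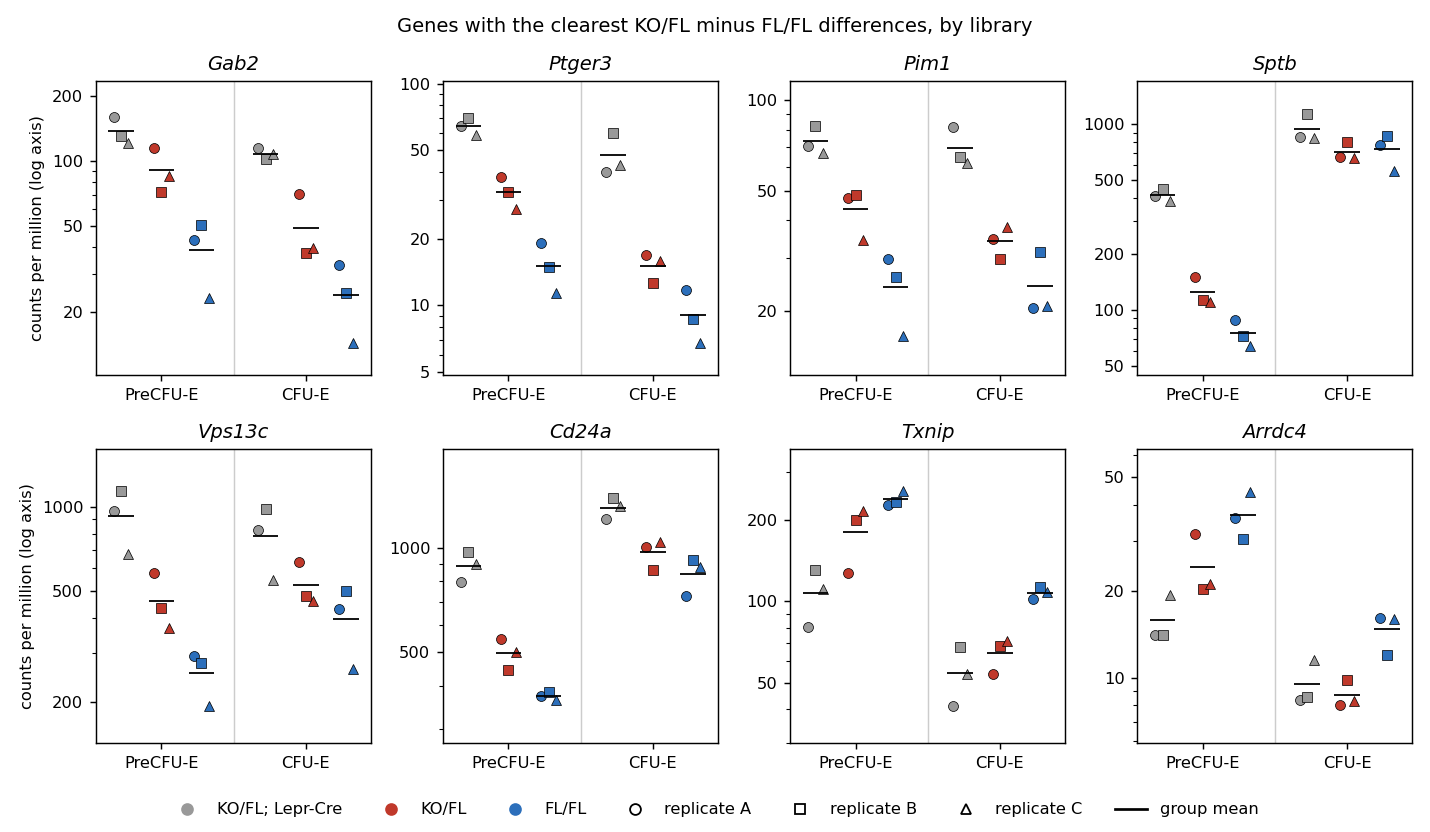
Levels in CPM (log axis) of 8 genes in each library of KO/FL;Lepr-Cre (grey), KO/FL (red) and FL/FL (blue) mice, PreCFU-E left and CFU-E right in each panel; marker shape gives the replicate letter and the line the group mean of 3 mice. Gab2 and Ptger3 lie higher in every KO/FL than in every FL/FL library of both cell types. Pim1, Sptb, Vps13c and Cd24a do so in PreCFU-E only. Txnip lies lower in every KO/FL library in both cell types and Arrdc4 in CFU-E only.

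The remaining genes with the smallest p in each cell type did not pass the adjusted test and are described by their values. In PreCFU-E the separated genes with the smallest p included Adgrg7, an adhesion receptor (67.1, 53.7 and 59.5 CPM in KO/FL, against 38.1, 41.6 and 35.0 CPM in FL/FL), and Lmna, the gene of lamins A and C (108, 111 and 100 CPM in KO/FL, against 85.0, 77.3 and 78.1 CPM in FL/FL). Bex4, Stard3nl and Acyp2 completed the higher side, with log2 fold changes of 0.87 to 1.54. The lower side included 2 transcription factors of immature progenitors. Zbtb16, which encodes PLZF, had 22.9, 27.3 and 22.2 CPM in KO/FL, against 40.8, 50.0 and 39.8 CPM in FL/FL (-0.85 ± 0.23, unadjusted p = 0.000999). Gata2 had 127, 146 and 127 CPM in KO/FL, against 172, 191 and 194 CPM in FL/FL (-0.48 ± 0.14, unadjusted p = 0.00190). Scin, the actin-severing protein scinderin, had 12.6, 11.1 and 15.9 CPM in KO/FL, against 25.3, 31.9 and 35.7 CPM in FL/FL (-1.23 ± 0.36). Dedd2, Zfp362, Ppp1r3e, Zkscan17, Nthl1 and 2 unnamed clone-based genes made up the rest of the lower side, with log2 fold changes of -0.37 to -1.37.

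In CFU-E the separated genes with the smallest p on the higher side, besides Gab2, were the calcium channel gene Cacna1c, Phldb1, the transcription factor Mef2c, Txnrd1, Elmo1, Tle1, Arhgef40, Dbt and Podxl. Mef2c had 17.9, 9.80 and 11.3 CPM in KO/FL, against 8.10, 6.47 and 4.10 CPM in FL/FL (1.08 ± 0.32, unadjusted p = 0.00270), whereas its PreCFU-E fold change was 0.12 ± 0.16. Txnrd1, the cytosolic thioredoxin reductase, had 229, 167 and 178 CPM in KO/FL, against 139, 160 and 129 CPM in FL/FL (0.42 ± 0.13). On the lower side were Txnip, Mylk3, St5, Pde3b, Aldh2, Dapp1, Iqgap2, Tuft1, Dtx3 and Pepd. The mitochondrial aldehyde dehydrogenase gene Aldh2 showed how narrow such differences were, with 144, 141 and 145 CPM in KO/FL, against 182, 178 and 194 CPM in FL/FL (-0.36 ± 0.11, unadjusted p = 0.00257).

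Txnip and Arrdc4 encode α-arrestins that limit glucose uptake, and both are known targets of the glucose-sensing factors MondoA and ChREBP. Txnip had 53.9, 68.4 and 71.5 CPM in KO/FL CFU-E, against 102, 113 and 108 CPM in FL/FL (-0.74 ± 0.17, unadjusted p = 0.000232, adjusted p = 1). Its PreCFU-E levels were 127, 200 and 215 CPM in KO/FL, against 227, 233 and 256 CPM in FL/FL (-0.39 ± 0.19, unadjusted p = 0.0598). Arrdc4 had 31.6, 20.3 and 21.1 CPM in KO/FL PreCFU-E, against 36.0, 30.6 and 44.3 CPM in FL/FL, and 8.04, 9.80 and 8.29 CPM in KO/FL CFU-E, against 16.2, 12 and 16.1 CPM in FL/FL. The groups of both genes were separated in CFU-E, and those of Arrdc4 overlapped in PreCFU-E. Averaged over the 2 libraries of a mouse, Txnip fell in KO/FL when the replicate letter was a block (log2 fold change -0.59, limma adjusted p = 0.0245).

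The 250 bases before the RefSeq start of these 2 genes (GRCm38.p6; Txnip chr3:96557707-96557956, plus strand; Arrdc4 chr7:68749239-68749488, minus strand) are shown because both genes were lower in KO/FL in both cell types. Capitals mark CACGNG, the E-box-like hexamer of which paired copies form a carbohydrate response element, on either strand.
Txnip: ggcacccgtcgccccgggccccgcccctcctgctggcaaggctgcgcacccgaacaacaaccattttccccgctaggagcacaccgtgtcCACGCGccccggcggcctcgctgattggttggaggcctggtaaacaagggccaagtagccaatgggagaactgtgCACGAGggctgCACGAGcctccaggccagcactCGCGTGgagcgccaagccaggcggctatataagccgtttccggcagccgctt
Arrdc4: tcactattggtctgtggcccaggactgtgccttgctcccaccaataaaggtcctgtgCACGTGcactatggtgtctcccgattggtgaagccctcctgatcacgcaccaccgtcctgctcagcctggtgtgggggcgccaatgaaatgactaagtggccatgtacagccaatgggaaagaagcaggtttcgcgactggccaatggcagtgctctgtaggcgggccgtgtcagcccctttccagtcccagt
Txnip holds 4 matches, of which the 2 that begin 85 and 74 bases before the start stand 5 bases apart in the same orientation, and Arrdc4 holds 1, beginning 193 bases before the start. At least 1 match was present in 23.5% and at least 2 in 9.52% of the 32851 promoter windows of that table, so the motif is common and its presence is a description of these sequences.

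Across the 9907 genes tested in both cell types, the KO/FL minus FL/FL log2 fold changes of PreCFU-E and CFU-E were weakly related (Pearson r = 0.0817, Spearman rho = 0.108, across genes, which are not independent replicates). The 2 comparisons share no library, but the same 6 mice gave both cell types, so differences between individual mice enter both. The direction was shared by 54.7% of all genes. Among genes with an unadjusted p under 0.05 it was shared by 203 of 333 (61.0%) when they were chosen in PreCFU-E and by 140 of 204 (68.6%) when chosen in CFU-E. Of the 83 genes whose groups were separated in both cell types, 59 had the same direction. These shares were not tested. No gene differed in its genotype effect between the cell types at an adjusted p of 0.05 in edgeR (0 of 10732, 0% called; 249 genes, 2.32%, at an unadjusted p under 0.05, and 397 genes, 3.7%, with mouse as a block).

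An unadjusted p under 0.05 in both cell types was found for 18 genes, 17 of them in the same direction. The 10 that were higher in KO/FL were Gab2, Ptger3, Pim1, Fam124a, Cish, Podxl, Jak1, Prkcq, Psat1 and Rars. The 7 that were lower were Ccnd1, Itga5, Rxra, Arrdc4, Pink1, Slc41a3 and Capn11. Their roles are diverse: Jak1 and Prkcq are signalling kinases, Psat1 makes serine, Rars charges arginyl-tRNA, Itga5 is the fibronectin receptor α chain, Pink1 guards mitochondrial quality and Rxra is a nuclear receptor.

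Jak1 and Itga5 had small differences with little spread. Jak1 had 387, 413 and 398 CPM in KO/FL PreCFU-E, against 301, 336 and 348 CPM in FL/FL, and 426, 449 and 434 CPM in KO/FL CFU-E, against 328, 385 and 396 CPM in FL/FL. Itga5 had 110, 87.4 and 88.7 CPM in KO/FL PreCFU-E, against 131, 112 and 114 CPM in FL/FL, and 118, 132 and 110 CPM in KO/FL CFU-E, against 159, 149 and 144 CPM in FL/FL. Neither gene's groups overlapped in either cell type, with log2 fold changes of 0.28 ± 0.10 and 0.24 ± 0.11 for Jak1 and of -0.32 ± 0.13 and -0.33 ± 0.12 for Itga5 in PreCFU-E and CFU-E. Pink1 had 22.7, 38.0 and 42.3 CPM in KO/FL PreCFU-E, against 45.6, 51.9 and 60.7 CPM in FL/FL, and 25.4, 24.8 and 28.3 CPM in KO/FL CFU-E, against 36.3, 28.1 and 47.6 CPM in FL/FL, where FL/FL replicate B lay just inside the KO/FL range.

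Others rested on few reads. Capn11, a calpain protease, had 0, 0 and 2 counts in KO/FL PreCFU-E, against 28, 0 and 23 in FL/FL, and 0, 2 and 0 counts in KO/FL CFU-E, against 16, 14 and 20 in FL/FL. Itga9 was the exception with opposite directions, and single libraries made it so: KO/FL replicate C of PreCFU-E held 5589 reads, with at most 39 in the other 5 PreCFU-E libraries, and FL/FL replicate B of CFU-E held 7073, with at most 56 in the other 5 CFU-E libraries.

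**Figure D2:**
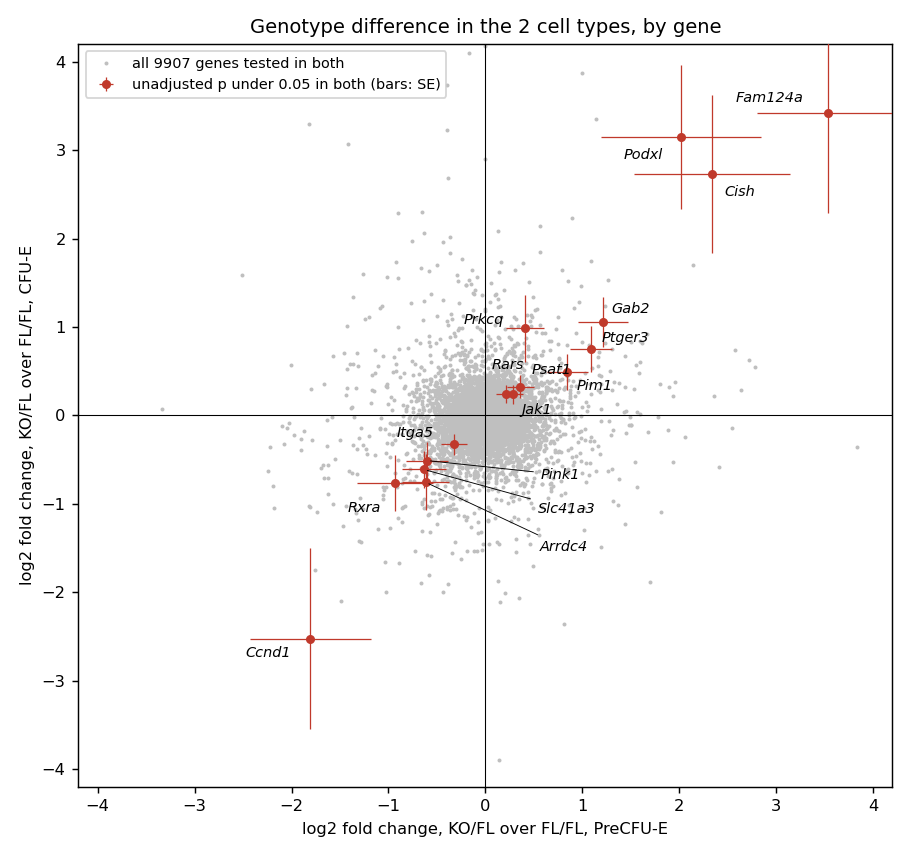
Log2 fold change of KO/FL over FL/FL in PreCFU-E (x axis) and CFU-E (y axis) for each of 9907 genes tested in both (grey) and for genes with an unadjusted p under 0.05 in both (red, bars are SE). The grey cloud has little slope (r = 0.0817), and 16 of the 18 red genes are drawn in the lower left and upper right, while Capn11 and Itga9, with 5 other genes, lie beyond the axes.

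Taking each mouse once, as the mean of log2 CPM over its 2 libraries, limma called 0 of 9907 genes (0% called; 272 genes, 2.75%, at an unadjusted p under 0.05, 1.46% higher and 1.28% lower). With the replicate letter as a block it called 3, of which Ptger3 (log2 fold change 0.92, adjusted p = 0.0356) and Pim1 (0.69, adjusted p = 0.0356) rose in KO/FL, and Txnip fell. Mef2c, Tle1, Dbt, Mpv17l and Tnfrsf21 were among the next on the higher side of the unblocked test and Cdk20, Cdc42bpb and Ppp1r3e on the lower.

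The KIT receptor gene itself did not separate the genotypes. Kit had 677, 833 and 654 CPM in KO/FL PreCFU-E, against 860, 842 and 741 CPM in FL/FL (-0.17 ± 0.12, unadjusted p = 0.161), and 355, 443 and 320 CPM in KO/FL CFU-E, against 463, 358 and 402 CPM in FL/FL (-0.13 ± 0.14, unadjusted p = 0.377). Among 31 genes of the KIT signalling pathway tested in PreCFU-E, Gab2 was higher and Plcg1, the phospholipase Cγ1 gene, was lower at an unadjusted p under 0.05, and of 29 tested in CFU-E Gab2 alone was. Over all genes, 3.4% passed this threshold in PreCFU-E and 2.06% in CFU-E. The median log2 fold change of the pathway was -0.05 in PreCFU-E and 0.07 in CFU-E.

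Genes that respond to KIT through ERK leaned towards lower levels in KO/FL cells, though none passed the adjusted test. Of 18 tested in PreCFU-E, 0 were higher and 2 lower at an unadjusted p under 0.05 (1.84% and 1.55% of all genes). Another count, of separated genes, was 4, all lower (4.66% of all genes were separated and lower). The median log2 fold change was -0.42, against 0.00 over all genes. Of 17 tested in CFU-E, 0 were higher and 2 lower at that threshold (0.922% and 1.14% of all genes). Separated genes again numbered 4, all lower (4.02% of all genes were separated and lower). The median was -0.74, against 0.00 over all genes. The list was drawn up with earlier results of these libraries known, so its direction is not independent evidence.

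Ccnd1, the cyclin D1 gene that drives entry into the cell cycle, had 4.76, 3.06 and 1.35 CPM in KO/FL PreCFU-E, against 12.9, 13.1 and 5.28 CPM in FL/FL. CFU-E had 1.23, 2.34 and 0 CPM in KO/FL, against 12.5, 4.27 and 4.57 CPM in FL/FL. Its groups were separated in both cell types, with log2 fold changes of -1.81 ± 0.63 (unadjusted p = 0.00865) and -2.52 ± 1.03 (unadjusted p = 0.0236). Spry4, a Sprouty inhibitor of RAS signalling, was likewise separated in both: PreCFU-E had 11.5, 9.74 and 8.84 CPM in KO/FL, against 28.9, 17.2 and 27.2 CPM in FL/FL, and CFU-E had 6.25, 7.69 and 3.86 CPM in KO/FL, against 11.6, 12 and 10.5 CPM in FL/FL. Spred2, another RAS inhibitor, was separated too, with 71.6, 90.1 and 95.3 CPM in KO/FL PreCFU-E, against 106, 102 and 101 CPM in FL/FL, and 65.5, 75.5 and 60.3 CPM in KO/FL CFU-E, against 99.3, 88.0 and 80.3 CPM in FL/FL.

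The log2 fold changes were -1.30 ± 0.59 and -0.93 ± 0.49 for Spry4 and -0.26 ± 0.16 and -0.41 ± 0.20 for Spred2 in PreCFU-E and CFU-E. For the ERK phosphatase gene Dusp6 they were -0.53 ± 0.41 and -0.87 ± 0.84, and for the ETS factor gene Etv5 -0.72 ± 0.40 and -0.69 ± 0.52. Dusp6 starts -0.752 Mb from the Kitl start, on the chromosome stretch that flanks the null allele. Fos, an immediate-early gene of the list, varied widely between the mice of each genotype. It had 14.8, 8.49 and 0 CPM in KO/FL PreCFU-E, against 17, 43 and 1.67 CPM in FL/FL, with replicate C lowest in both.

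Genes that respond to EPO through STAT5 showed no common shift. Of 15 tested in PreCFU-E, 3 were higher and 0 lower at an unadjusted p under 0.05, with a median log2 fold change of 0.04. Of 15 tested in CFU-E, 5 were higher and 1 lower, with a median of 0.03. Over all genes, 1.84% were higher and 1.55% lower in PreCFU-E, and 0.922% higher and 1.14% lower in CFU-E, and this list too was made with earlier results known. Those higher in CFU-E were Podxl, Cish, Socs2, Fam132b and Pim1, and the 1 lower was Bcl6.

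Fam132b encodes erythroferrone, the hormone by which erythroid cells lower hepcidin. It had 7.48, 4.12 and 5.15 CPM in KO/FL CFU-E, against 1.94, 2.77 and 0.352 CPM in FL/FL (1.73 ± 0.50, unadjusted p = 0.00235), and 2.24, 1.81 and 1.35 CPM in KO/FL PreCFU-E, against 2.20, 1.19 and 1.25 CPM in FL/FL, where the groups overlapped. Podxl, a surface sialomucin, had 54.1, 8.91 and 18.6 CPM in KO/FL CFU-E, against 1.94, 4.50 and 2.46 CPM in FL/FL, and 41.1, 7.80 and 10.2 CPM in KO/FL PreCFU-E, against 3.04, 8.01 and 2.5 CPM in FL/FL. KO/FL replicate A was the highest in both cell types. Cish, a STAT5-induced feedback inhibitor, stayed at few reads, with 0.560, 1.11 and 7.94 CPM in KO/FL PreCFU-E, against 0.524, 1.19 and 0.278 CPM in FL/FL, so that replicate C alone was high. The EPO receptor gene Epor and the downstream genes Jak2, Stat5a and Stat5b had no unadjusted p under 0.05 in either cell type.

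**Figure D3:**
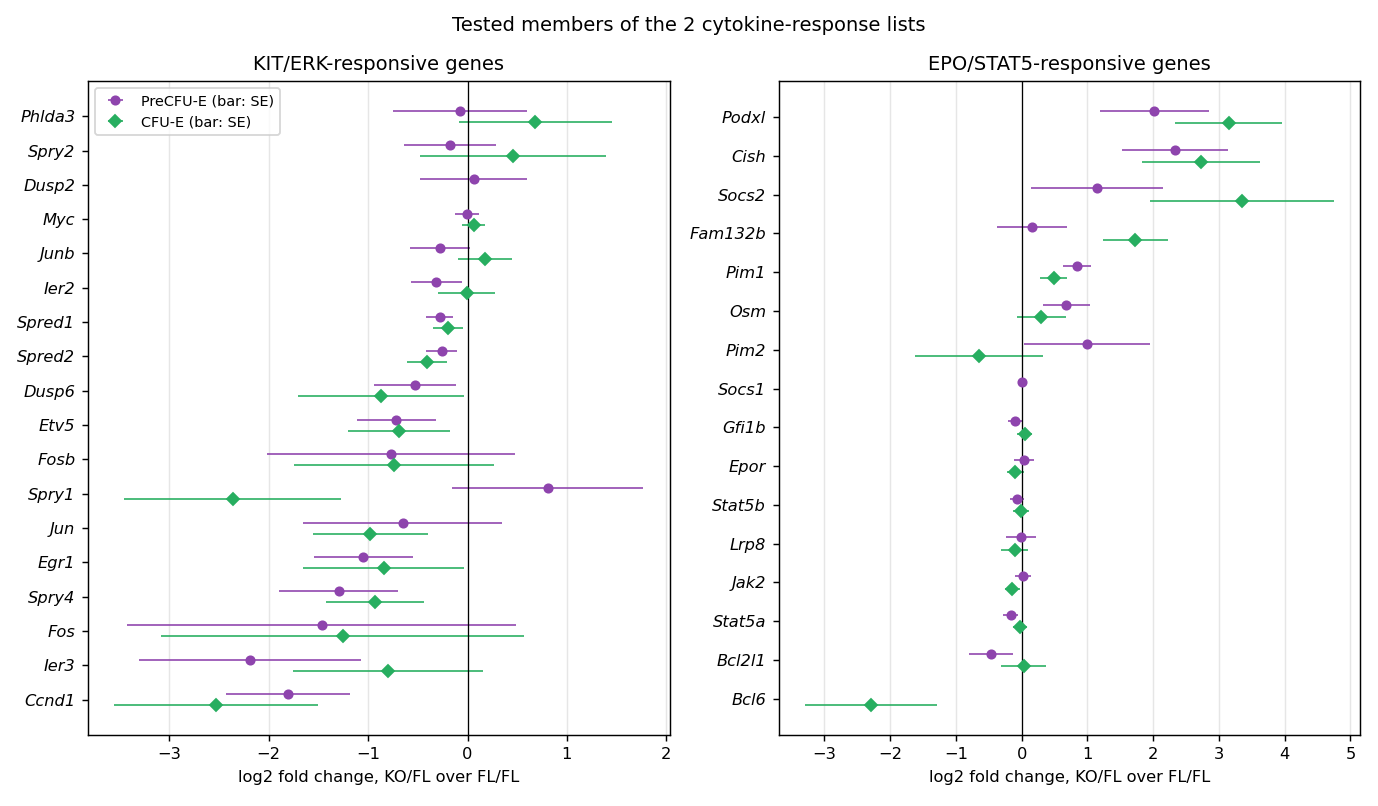
Log2 fold change of KO/FL over FL/FL with its SE for each tested KIT/ERK-responsive gene (left) and EPO/STAT5-responsive gene (right), in PreCFU-E (purple circles) and CFU-E (green diamonds); Socs1 has no SE, its fold change being near 0. Most KIT/ERK genes lie left of 0 (16 of 18 in PreCFU-E and 13 of 17 in CFU-E), and Podxl, Cish, Socs2, Fam132b and Pim1 lie farthest right among EPO/STAT5 genes in CFU-E.

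Lists of the erythroid programme held few differences, beside 1.84% of all genes higher and 1.55% lower at an unadjusted p under 0.05 in PreCFU-E. Among 23 erythroid transcription factors tested in PreCFU-E, 0 were higher and 2 lower at that threshold: Gata2, and Foxo3 at 257 ± 20.5 CPM in KO/FL and 317 ± 41.9 CPM in FL/FL (SD, n = 3 each). None of 22 passed in CFU-E. Of 17 haem synthesis genes in PreCFU-E, Abcb6 was higher, and of 21 red cell membrane genes Sptb and Rhag were. The 14 iron handling genes held 2 that were lower in PreCFU-E, the mitochondrial iron importer gene Slc25a28 and the iron-regulatory protein gene Aco1. In CFU-E no gene of these 3 lists passed.

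Cell cycle lists held a few genes that were higher in KO/FL PreCFU-E. Of 29 S phase genes, 4 were higher and 0 lower (Ccne1, Ccne2 and Rrm2 among the 4), and of 29 mitosis genes 2 were higher (Cdc20 and Hmmr) and 25 had a positive fold change, with medians of 0.05 and 0.09. Over all PreCFU-E genes, 1.84% were higher, 1.55% lower and 50.8% positive. Ccne2, the cyclin E2 gene, had 43.7 ± 11.5 CPM in KO/FL and 29.1 ± 1.52 CPM in FL/FL (SD, n = 3 each; unadjusted p = 0.0133). In CFU-E, 0 of 29 S phase genes passed and 1 of 29 mitosis genes, Nusap1, was higher. Among 24 amino acid and stress genes in CFU-E, Psat1, Psph and Mthfd2, enzymes of serine and one-carbon metabolism, were higher (0.922% of all genes). Their fold changes were 0.32, 0.55 and 0.42 on the log2 scale. All of these fall short of the adjusted threshold.

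Summed levels of the marker lists of other cell types and of stem and progenitor cells overlapped between the genotypes, with 2 exceptions. Neither sum was tested, and among single genes 8.99% in PreCFU-E and 8.06% in CFU-E were separated. The 17 megakaryocyte genes summed to 53.2 to 62.6 CPM in KO/FL CFU-E, against 64.2 to 79.5 CPM in FL/FL CFU-E, and to 87.4 to 94.1 CPM in KO/FL PreCFU-E, against 88 to 109 CPM in FL/FL PreCFU-E, with 2 of the 17 at 0 in all 12 libraries. Vwf, the von Willebrand factor gene, led this sum in CFU-E with means of 27.9 CPM in KO/FL and 37.4 CPM in FL/FL (unadjusted p = 0.0586). The 26 stem and progenitor genes summed to 1601 to 1927 CPM in KO/FL PreCFU-E, against 1970 to 2074 CPM in FL/FL PreCFU-E, with 1 of the 26 at 0 throughout. Kit was the most abundant of them, and its own groups overlapped. Lmo2 and Txnip followed, with PreCFU-E means of 432 and 181 CPM in KO/FL and of 444 and 239 CPM in FL/FL. The list as a whole did not shift: of its 16 genes tested in PreCFU-E, 8 had a positive and 8 a negative log2 fold change (median -0.02). The part of either sum in the differences of Gata2, Zbtb16 and the other genes above was not tested.

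Levels in KO/FL;Lepr-Cre mice are given side by side, since the contrasts share libraries. For Gab2 in PreCFU-E, KO/FL;Lepr-Cre averaged 138 CPM, KO/FL 91.1 CPM and FL/FL 39.1 CPM. For Ptger3 these means were 64.5 CPM in KO/FL;Lepr-Cre, 32.5 CPM in KO/FL and 15.1 CPM in FL/FL, and for Pim1 73.3, 43.5 and 24.1 CPM in the same order of groups. Sptb stood at 416 CPM in KO/FL;Lepr-Cre, 124 CPM in KO/FL and 74.9 CPM in FL/FL. KO/FL thus lay between the other groups for these 4 genes in PreCFU-E.

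On the lower side, Spry4 in PreCFU-E had 0 to 2.35 CPM in KO/FL;Lepr-Cre, 8.84 to 11.5 CPM in KO/FL and 17.2 to 28.9 CPM in FL/FL. Gata2 averaged 57.3 CPM in KO/FL;Lepr-Cre, 133 CPM in KO/FL and 186 CPM in FL/FL. Ccnd1 had no read in any KO/FL;Lepr-Cre PreCFU-E library, with means of 3.06 CPM in KO/FL and 10.4 CPM in FL/FL. Txnip in CFU-E had means of 54.4 CPM in KO/FL;Lepr-Cre, 64.6 CPM in KO/FL and 108 CPM in FL/FL. Jak1 did not follow this order: in CFU-E it averaged 328 CPM in KO/FL;Lepr-Cre, 436 CPM in KO/FL and 370 CPM in FL/FL. Nor did others: of the 20 separated genes with the smallest p in each cell type, the KO/FL mean did not lie between the other 2 groups for 5 in PreCFU-E (Dedd2, Ppp1r3e, Nthl1 and 2 clone-based genes) and 6 in CFU-E (Elmo1, Tle1, Dbt, St5, Pde3b and Pepd). Dedd2 in PreCFU-E averaged 41.9 CPM in KO/FL;Lepr-Cre, 37.2 CPM in KO/FL and 57.4 CPM in FL/FL.

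Genes near Kitl on chromosome 10 were examined because a null allele and its flanking chromosome are inherited together. In PreCFU-E, 1 of 37 tested genes within 10 Mb of the Kitl start had an unadjusted p under 0.05 (2.70%, against 3.4% of all genes). It was Tmtc3, which was higher, 0.472 Mb from Kitl (log2 fold change 0.59 ± 0.27). In CFU-E there were 5 of 38 (13.2%, against 2.06% of all genes), 3 lower (Cradd, Fgd6 and Nr2c1) and 2 higher (Socs2 and Pawr). No gene passed in both cell types and none passed the adjusted test.

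Of the 5 CFU-E genes, Socs2, Cradd, Nr2c1 and Fgd6 began between -4.60 and -5.98 Mb from Kitl and Pawr at 8.32 Mb. Dusp6, nearer at -0.752 Mb, did not reach an unadjusted p under 0.05 but was separated and lower in CFU-E (-0.87 ± 0.84). Its PreCFU-E groups overlapped (-0.53 ± 0.41). Dusp6 is in the KIT/ERK list and Socs2 in the EPO/STAT5 list. The part of their place near Kitl in their fold changes was not tested. Fgd6 had 43.9, 76.8 and 70.6 CPM in KO/FL CFU-E, against 98.4, 87.7 and 92.5 CPM in FL/FL (-0.54 ± 0.18, unadjusted p = 0.00701), but 28.5, 16.1 and 35.5 CPM in KO/FL PreCFU-E, against 27.2, 17.2 and 27 CPM in FL/FL. Pawr rested on KO/FL replicate A, with 48.4, 0.334 and 1.43 CPM in KO/FL, against 0.176, 0.231 and 0.117 CPM in FL/FL.

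**Figure D4:**
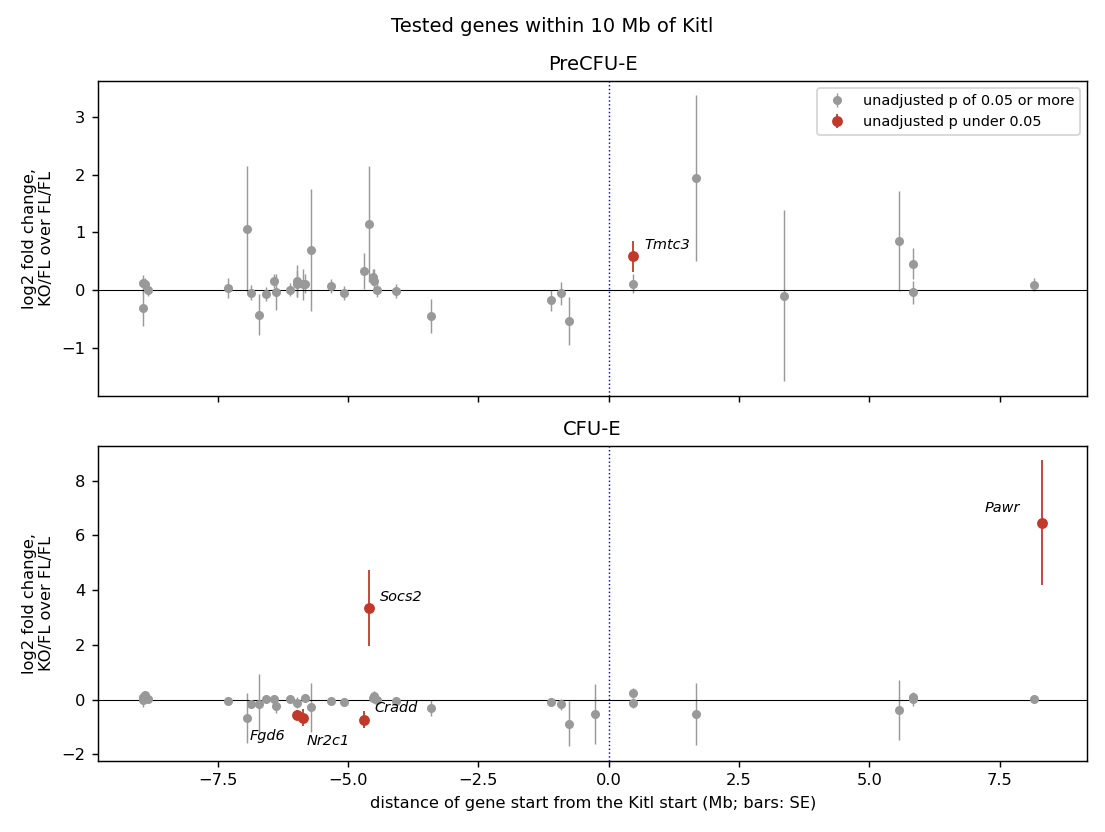
Log2 fold change of KO/FL over FL/FL (bars are SE) for genes tested within 10 Mb of Kitl, by distance of the gene start from the Kitl start in Mb, in PreCFU-E (upper) and CFU-E (lower); red marks an unadjusted p under 0.05. The single red gene of PreCFU-E, Tmtc3, lies 0.472 Mb from Kitl, and the 5 of CFU-E lie at -5.98 to -4.60 and 8.32 Mb; the vertical axes differ in range.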

How the data were processed

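The authors' deposited table holds raw read counts per gene symbol for 18 libraries; the submitters' processing notes name STAR 2.5.2b, HTSeq and the build mm10. The deposited RPKM table is the authors' scaling of these counts by library total and 1 length per gene; it served as an alternative, as log2(RPKM + 1) and log2(RPKM + 0.1). Depth ran from 3541066 to 9389122 reads, and 2 replicates of a group differed by a chi-square of 7.93 to 19.8 per gene, so none was a repeat of another. The strand setting of the counting is unknown here, so reads of overlapping genes cannot be told apart. Nothing in the labels says whether the mice of a letter were litter mates or sorted on a shared day.

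The genotype test within a cell type was a fit of its 9 libraries in edgeR 4.0.16 (R 4.3.3): TMM, filterByExpr (minimum count 10, total 15), robust quasi-likelihood test, Benjamini-Hochberg adjustment, threshold 0.05, two-sided. CPM are TMM-scaled. Mice were compared over both cell types with limma 3.58.1 on mean log2 CPM (prior count 2). The genotype by cell type difference used 18 libraries in 6 groups. Tests were checked on simulated counts. DESeq2 1.42.0, other scalings, filters, samples, blocks, sex, thinning and leaving out each mouse were alternatives.

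Same-letter KO/FL and FL/FL libraries deviated together (r = 0.120, 0.169 and 0.179 in PreCFU-E; 0.133, 0.121 and 0.190 in CFU-E; above the rule of 0.1 at a prior count of 2), so blocked values stand beside results they change. At a prior count of 0.5 the PreCFU-E pair of letter A gave r = 0.0919, under that rule. Positions are GENCODE M21, matched by symbol for 19580 of 21967 genes.

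Members, the 34 gene lists and tests were chosen with earlier results of these data known. Named genes are Kit and Kitl; among genes of at least 5 CPM with separated groups and no predicted-model symbol, the 10 smallest p per direction and comparison (5 for the difference between cell types, without separation); genes under an unadjusted p of 0.05 in both cell types; up to 4 members per list; and such genes within 10 Mb of Kitl. List members past that p, and genes that an alternative called, were added after their values were seen.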

Additional observations from a re-analysis of the deposited data

How the results depend on the processing

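Against 0 genes called in the main test, PreCFU-E gave 5 with DESeq2, 9 without a filter on low counts and 9 with the replicate block. CFU-E gave 1 with DESeq2 (Podxl) and 2 without a filter (Gab2 higher and Txnip lower). The per-mouse test gave 3 with the replicate block, and the difference between the cell types gave 1 without a filter (Sptb). Leaving out each replicate gave 0 to 1 genes in PreCFU-E (Bex4 without FL/FL replicate B, Fam124a without FL/FL replicate C), 0 to 1 in CFU-E and 0 to 1 per mouse (Fam124a without KO/FL replicate C in both), and 0 for the difference between cell types. The other settings run gave 0, and the block changed no other call.

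The share of genes with the same direction in both cell types, leaving out each replicate, ranged from 54.2 to 58.0% over all genes, from 62.0 to 73.8% for genes chosen in PreCFU-E, from 61.5 to 78.4% for those chosen in CFU-E and from 81.3 to 100% for genes past the threshold in both. With the 6 libraries of each cell type alone this last share was 100%. The cause of these shifts was not tested. With 3 mice a genotype the median SE was 0.20. The median size of the measured fold changes, 0.14 in PreCFU-E and 0.12 in CFU-E, lay below that SE. It therefore does not show that real differences of this size exist, and such differences would not have been detectable.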

Other observations

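Genes of the PreCFU-E to CFU-E step were taken from other libraries. These were the KO/FL;Lepr-Cre libraries, which enter the KO/FL against FL/FL test only through its filter, scaling and estimate of spread. In them, 17 genes of at least 10 CPM were called and over 4-fold lower in CFU-E and 8 were over 4-fold higher. In PreCFU-E, 14 of the 17 step-down genes had a negative KO/FL minus FL/FL fold change (50.8% of all genes were positive). Their median was -0.14 on the log2 scale, against 0.00 over all genes. At an unadjusted p under 0.05 in edgeR, 3 were lower (1.55% of all genes). In CFU-E the median of these 17 was -0.01. By library, the mean of the step-down genes in PreCFU-E was 5.68, 6.12 and 6.0 log2 CPM in KO/FL, against 5.92, 6.17 and 6.24 log2 CPM in FL/FL, so the groups overlapped while every KO/FL library lay below the FL/FL library of its letter. The 8 step-up genes had a median fold change of -0.07 in PreCFU-E, where 4 were positive. In CFU-E it was -0.11, and all 8 were negative (50.0% of all CFU-E genes were positive). Their mean in PreCFU-E pointed the other way from the median: it was 1.32, 0.76 and 1.81 log2 CPM in KO/FL, against 0.92, 0.59 and 1.48 log2 CPM in FL/FL, with overlapping groups and every KO/FL library above the FL/FL library of its letter. For both sets, all letters can share a direction when nothing differs, and the direction by letter was not tested.

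Vps13c and Fos were lowest in replicate C of both genotypes in CFU-E, while the order of replicates A and B differed between the genotypes. Vps13c in CFU-E had 634, 477 and 460 CPM in KO/FL replicates A, B and C, against 429, 499 and 263 CPM in FL/FL. Fos in CFU-E had 8.37, 1.45 and 0 CPM in KO/FL, against 4.93, 18.4 and 0.469 CPM in FL/FL, and replicate C was again the lowest in each genotype.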
